A study of Mus musculus with 5 samples.

Results

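A set of 10 genes that switch MAP kinase signalling off were read in whole melanomas of mice, in tumors of B16F1 cells that overexpress the chemokine CXCL5 and in tumors of the B16F1 line itself. They are Dusp1, Dusp2, Dusp4, Dusp5, Dusp6, Dusp10, Spry1, Spry2, Spry4 and Spred1. They were taken by name from the deposited table, which lists 23284 genes, and all 10 had a row and passed the filter that left 12533 genes for testing (an FPKM not under 1 in 2 or more of the 5 libraries). FPKM counts sequenced fragments relative to transcript length and library size. The series holds 2 libraries of B16F1-CXCL5 tumors and 3 of B16F1 tumors. Both kinds of cell come from the B16 melanoma of C57BL/6 mice, were placed into flank skin of C57BL/6J hosts without further treatment, and were taken out as primary tumors of 250 to 350 mm³. The labels give no mouse age, no mouse per library, no count of clones and no promoter for the CXCL5 construct, so the p-values measure only the spread between these samples, and an effect of CXCL5 and one of a particular cell population cannot be told apart. Cxcl5 itself had 83.7 and 85.4 FPKM in B16F1-CXCL5 libraries 1 and 2, against 1.86, 3.62 and 1.01 FPKM in B16F1 libraries 1, 2 and 3, and the 5 libraries thus matched their labels.

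The MAP kinases ERK, JNK and p38 are switched on by phosphorylation of a threonine and a tyrosine in their activation loop. Dual-specificity phosphatases (DUSPs) of the MAP kinase phosphatase kind remove both phosphates. Sprouty and SPRED proteins act further upstream and dampen the route from receptor tyrosine kinases through RAS and RAF to ERK. Many of these genes are themselves transcribed in response to ERK activity, so their mRNA is commonly read as a trace of pathway output in melanoma, a tumor in which this route is often active. MAP kinase activity itself was not measured.

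The DUSP members share a catalytic signature, a histidine and a cysteine followed by a glycine and an arginine in the pattern HCxxGxxR, in which the cysteine attacks the phosphate and the arginine holds it. The 24 coding bases of that signature are shown because they mark which members are phosphatases; capitals are the histidine and cysteine codons at the start and the arginine codon at the end (GENCODE M21 transcripts, GRCm38, coding strand).
Dusp1: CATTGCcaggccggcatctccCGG
Dusp2: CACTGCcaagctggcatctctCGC
Dusp4: CACTGCcaggccggcatctccCGA
Dusp5: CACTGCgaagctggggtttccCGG
Dusp6: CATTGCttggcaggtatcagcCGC
Dusp10: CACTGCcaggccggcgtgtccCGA
Each of the 6 DUSP members held the signature, at codons 257 to 264 in Dusp1, 260 to 267 in Dusp2, 283 to 290 in Dusp4, 262 to 269 in Dusp5, 292 to 299 in Dusp6 and 408 to 415 in Dusp10. Across the 6 genes, 12 of the 24 bases were the same. Dusp4 matched Dusp1 at 22 of 24 bases, while Dusp5 and Dusp6 each matched it at 17. None of the 4 Sprouty and SPRED members held the signature (0 of 4), and 0.712% of the 10950 tested genes with a coding transcript did.

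Dusp5 and Dusp1 had the smallest unadjusted p-values of the 10 members, and their promoters are shown for that reason (RefSeq, GRCm38.p6, from 250 bases before to 50 after the start of the gene, on the gene's strand). Capitals mark matches on either strand to TGACGTCA (the full cyclic AMP response element, CRE) and its core TGACG, to the AP-1 letters TGANTCA, to the CArG box of serum response factor and to the ETS letters GGAAGT. The Dusp5 window lies at chr19:53528895-53529194 on the plus strand and the Dusp1 window at chr17:26508423-26508722 on the minus strand.
Dusp5: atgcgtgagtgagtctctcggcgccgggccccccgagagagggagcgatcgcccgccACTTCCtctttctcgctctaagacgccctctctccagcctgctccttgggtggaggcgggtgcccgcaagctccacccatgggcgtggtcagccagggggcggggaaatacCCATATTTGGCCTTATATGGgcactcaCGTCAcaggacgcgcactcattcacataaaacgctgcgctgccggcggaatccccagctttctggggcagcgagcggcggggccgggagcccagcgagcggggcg
Dusp1: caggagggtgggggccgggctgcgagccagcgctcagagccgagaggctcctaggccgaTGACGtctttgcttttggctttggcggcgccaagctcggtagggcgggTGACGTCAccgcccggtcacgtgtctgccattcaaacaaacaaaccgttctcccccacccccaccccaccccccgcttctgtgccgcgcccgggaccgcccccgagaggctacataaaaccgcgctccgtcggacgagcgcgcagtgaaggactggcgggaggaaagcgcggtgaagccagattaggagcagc
The Dusp5 window held 2 CArG boxes end to end, starting at positions -82 and -72 counted from the gene start, with 1 CRE core and 1 ETS match. In the Dusp1 window the full CRE started at position -143, and TGACG was found at 3 places, 2 of them within the full CRE. Promoter windows were found for 8 members, leaving Dusp4 and Spry4. Of those 8, 1 held a CArG box, 1 the full CRE, 3 the core, 1 the ETS match and 0 the AP-1 letters. Among all 32851 windows in the table the shares were 1.63% for the CArG box, 1.79% for the full CRE, 20.8% for the core, 23.8% for the ETS match and 7.81% for AP-1. These matches are letters in a window and not binding sites.

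Differences between the groups were tested with limma on log2(FPKM + 1) over all 12533 genes, with Benjamini-Hochberg adjustment and a threshold of 0.05. Of the 10 feedback genes, 0 passed in either direction, and their smallest adjusted p was 0.414. Over all genes 0.128% were called higher and 0.00798% lower in B16F1-CXCL5 tumors; a count of 0 among 10 is close to that background. At an unadjusted limma p under 0.05, 4 of the 10 were higher (Dusp5, Dusp1, Dusp6 and Spry4) and 0 lower, beside 3.57% higher and 5.39% lower over all genes. In 5 of the 10, both B16F1-CXCL5 libraries lay above all 3 B16F1 libraries, and 0 lay below. That pattern held for 10.8% of all tested genes in the upward direction and for 15.6% in the downward direction. The log2 fold change, B16F1-CXCL5 minus B16F1, was above 0 for 8 of the 10, against 46.6% of all genes, with a median of 0.26 against -0.01. Since the 10 genes were put together with earlier results of these data known, and all values come from the same 5 libraries, these counts describe the list and test nothing about it.

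**Figure D1:**
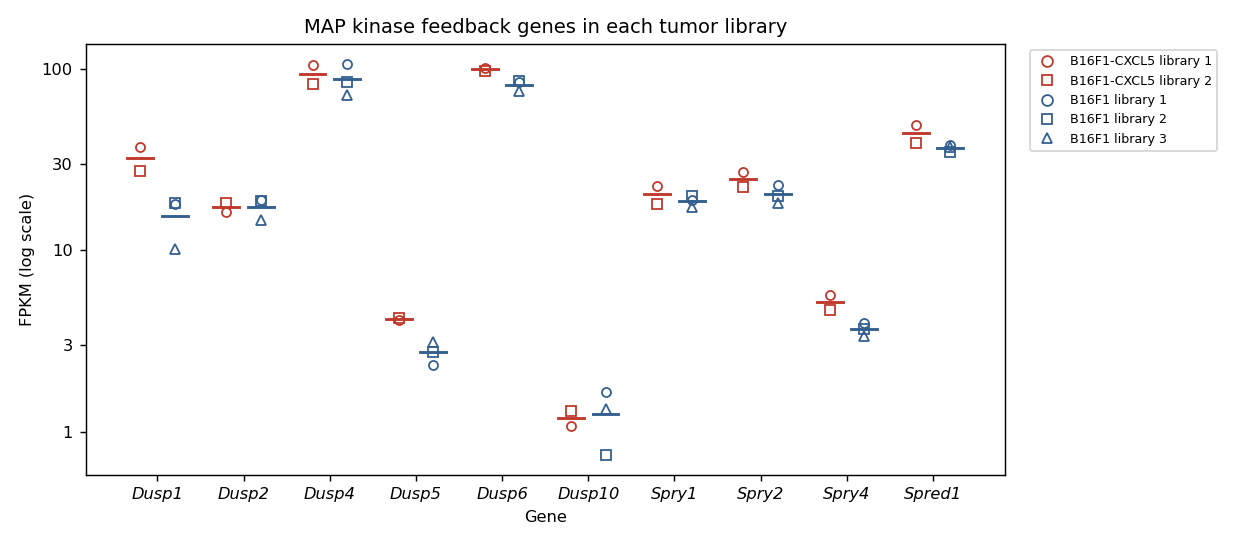
FPKM on a log axis for each of the 10 feedback genes, with B16F1-CXCL5 libraries in red on the left and B16F1 libraries in blue on the right of each gene, 1 symbol per library number and a bar at the group mean. Dusp1, Dusp5, Dusp6, Spry4 and Spred1 have both red points above all blue points, with the widest gap in Dusp1 (37.0 and 27.4 FPKM in B16F1-CXCL5, 10.2 to 18.2 FPKM in B16F1).

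Transcript levels spanned a wide range, and their order was nearly the same in both groups. FPKM divides by transcript length, so levels of different genes are set side by side here. Reads of overlapping genes, named below for some members, can still shift these levels, so the order is approximate. In B16F1-CXCL5 tumors the order of mean FPKM was Dusp6, Dusp4, Spred1, Dusp1, Spry2, Spry1, Dusp2, Spry4, Dusp5 and Dusp10, from 99.4 FPKM for Dusp6 to 1.19 FPKM for Dusp10. Neighbours whose library ranges overlapped there were Dusp6 with Dusp4, Spry2 with Spry1 and Spry1 with Dusp2. The order in B16F1 tumors was Dusp4, Dusp6, Spred1, Spry2, Spry1, Dusp2, Dusp1, Spry4, Dusp5 and Dusp10, from 87.7 FPKM for Dusp4 to 1.24 FPKM for Dusp10. There the ranges overlapped for Dusp4 with Dusp6 and along the chain Spry2, Spry1, Dusp2 and Dusp1. Dusp1 thus took the fourth place in B16F1-CXCL5 tumors, apart from both neighbours. In B16F1 tumors it was seventh, and its range (10.2 to 18.2 FPKM) overlapped that of Dusp2 (14.6 to 19.0 FPKM).

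Dusp1 encodes a nuclear phosphatase of p38, JNK and ERK that is induced within minutes by growth factors and stress. Its FPKM was 37.0 and 27.4 in B16F1-CXCL5 libraries 1 and 2, against 18.03, 18.2 and 10.2 in B16F1 libraries 1, 2 and 3. Both B16F1-CXCL5 values lay above every B16F1 value, and B16F1 library 3 was the low one. Means were 32.2 ± 6.74 FPKM (SD, n = 2) in B16F1-CXCL5 and 15.5 ± 4.56 FPKM (SD, n = 3) in B16F1 tumors, and their ratio was 2.08. On the log2 scale the difference was 1.04 (SE 0.27), with an unadjusted 95% interval from 0.36 to 1.72. It did not pass over all genes (limma adjusted p = 0.414), and the exact two-sided permutation p over the 5 libraries was 0.1, the smallest that 10 arrangements allow. In GENCODE M21 (GRCm38) Dusp1 spans 26505590 to 26562128 of chromosome 17, minus strand, well beyond the RefSeq start used for the promoter, and shares 11 bases of an exon with Ergic1 on the other strand.

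Dusp5 encodes a nuclear phosphatase selective for ERK. It had 4.15 and 4.22 FPKM in B16F1-CXCL5 libraries, against 2.34, 2.75 and 3.11 FPKM in B16F1 libraries 1, 2 and 3. The groups did not overlap, and the B16F1-CXCL5 values nearly coincided. Means were 4.18 ± 0.0505 FPKM (SD, n = 2) in B16F1-CXCL5 and 2.73 ± 0.384 FPKM (SD, n = 3) in B16F1 tumors, and their ratio was 1.53. The log2 fold change was 0.48 (SE 0.13, unadjusted 95% interval 0.17 to 0.79, limma adjusted p = 0.414, exact two-sided permutation p = 0.1). Because of the pseudocount of 1 this scale understates the change of a gene at so low a level. The annotation places another gene, AC137853.2, on the opposite strand over up to 547 bases of a Dusp5 exon (chromosome 19, 53529109 to 53542431), and without strand in the counting, reads of the pair cannot be told apart. The library kit was stranded, but the strand setting of the counting is not given in the sources used here.

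Dusp6, the cytoplasmic phosphatase of ERK, is a classic ERK target gene. Its FPKM was 102 and 97.3 in the B16F1-CXCL5 libraries, against 84.2, 85.8 and 75.5 in B16F1 libraries 1, 2 and 3. The groups did not overlap, and the distance was small beside the level, with means of 99.4 ± 3.05 FPKM (SD, n = 2) in B16F1-CXCL5 and 81.8 ± 5.53 FPKM (SD, n = 3) in B16F1 tumors. The log2 fold change was 0.28 (SE 0.08, unadjusted 95% interval 0.07 to 0.49, limma adjusted p = 0.456, exact two-sided permutation p = 0.1). The gene spans 99263231 to 99267489 of chromosome 10, plus strand.

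The remaining DUSP members overlapped between the groups. Dusp4 (chromosome 8, 34807297 to 34819894, plus strand), a nuclear phosphatase induced by ERK, had 105 and 82.1 FPKM in B16F1-CXCL5 libraries, against 107, 84.6 and 71.6 FPKM in B16F1 libraries 1, 2 and 3. Its log2 fold change was 0.10 with an unadjusted 95% interval from -0.38 to 0.58 (limma adjusted p = 0.930), an interval that includes differences of moderate size in either direction. Dusp2 (chromosome 2, 127336159 to 127338376, plus strand), a nuclear phosphatase first known from blood cells, had 16.3 and 18.2 FPKM in B16F1-CXCL5 libraries, against 19.0, 18.6 and 14.6 FPKM in the B16F1 libraries. Its log2 fold change was -0.01, with an unadjusted 95% interval from -0.34 to 0.33 (limma adjusted p = 0.996). Dusp10 (chromosome 1, 184013302 to 184075636, plus strand), a phosphatase of JNK and p38, had 1.08 and 1.31 FPKM in B16F1-CXCL5 libraries, against 1.66, 0.742 and 1.33 FPKM in B16F1 libraries 1, 2 and 3. The B16F1 libraries held both its lowest and its highest value, and the log2 fold change was -0.01 with an unadjusted 95% interval from -0.54 to 0.51 (limma adjusted p = 0.995). The sign for Dusp2 and Dusp10 turned under the scaling to the same sum per library (0.040 and 0.013), and for Dusp2 also under median-of-ratios scaling (0.010).

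Dusp4 and Dusp6 made up most of the DUSP transcripts in every library. Together they held 78.0% and 77.8% of the summed FPKM of the 6 DUSP members in B16F1-CXCL5 libraries 1 and 2, against 82.3%, 80.9% and 83.4% in B16F1 libraries 1, 2 and 3. The share of Dusp1 was 13.9% and 11.9% in the B16F1-CXCL5 libraries, against 7.76%, 8.62% and 5.78% in the B16F1 libraries. These shares add up to the whole, so a higher share of 1 gene lowers the others. The summed FPKM of the 6 genes was 265 and 231 in the B16F1-CXCL5 libraries, against 232, 211 and 176 in the B16F1 libraries, and these sums overlapped between the groups.

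**Figure D2:**
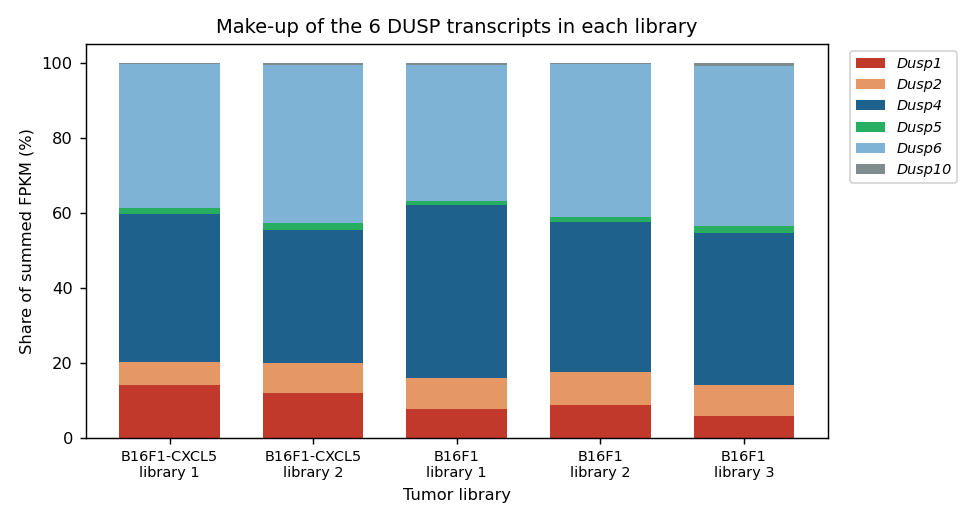
Share of the summed FPKM of the 6 DUSP members taken by each gene, in percent, 1 stacked bar per library with the B16F1-CXCL5 libraries on the left. Dusp4 and Dusp6 fill 77.8% to 83.4% of every bar, and the Dusp1 share at the foot is 13.9% and 11.9% in B16F1-CXCL5 and 5.78% to 8.62% in B16F1 libraries.

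Among the Sprouty members, inhibitors of receptor tyrosine kinase signalling to RAS and RAF, Spry4 had groups that did not overlap. It had 5.67 and 4.68 FPKM in B16F1-CXCL5 libraries, against 3.98, 3.67 and 3.36 FPKM in B16F1 libraries 1, 2 and 3. Means were 5.18 ± 0.696 FPKM (SD, n = 2) in B16F1-CXCL5 and 3.67 ± 0.310 FPKM (SD, n = 3) in B16F1 tumors, and their ratio was 1.41. The log2 fold change was 0.40 (SE 0.12, unadjusted 95% interval 0.10 to 0.70, limma adjusted p = 0.459, exact two-sided permutation p = 0.1). The gene spans 38586247 to 38601415 of chromosome 18, minus strand.

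Spry2 (chromosome 14, 105891947 to 105896819, minus strand) had 27.1 and 22.2 FPKM in B16F1-CXCL5 libraries, against 23.0, 19.9 and 18.1 FPKM in the B16F1 libraries, so that B16F1-CXCL5 library 2 lay below B16F1 library 1. Its log2 fold change was 0.27 (SE 0.13, unadjusted 95% interval -0.06 to 0.60, limma adjusted p = 0.651). Spry1 (chromosome 3, 37639947 to 37644598, plus strand) had 22.6 and 18.1 FPKM in B16F1-CXCL5 libraries, against 18.8, 20.0 and 17.4 FPKM in the B16F1 libraries, with a log2 fold change of 0.10 (unadjusted 95% interval -0.19 to 0.40, limma adjusted p = 0.863). Only B16F1-CXCL5 library 1 stood above the B16F1 range for Spry1. Over up to 577 bases of a Spry1 exon, GENCODE places Gm42922 on the opposite strand.

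Spred1 (chromosome 2, 117121374 to 117182279, plus strand), which brings the RAS GTPase-activating protein neurofibromin to the membrane, had 49.2 and 39.0 FPKM in B16F1-CXCL5 libraries, against 38.3, 34.8 and 37.1 FPKM in B16F1 libraries 1, 2 and 3. The groups did not overlap, but B16F1-CXCL5 library 2 exceeded the highest B16F1 library by less than the spread among B16F1 libraries. Means were 44.1 ± 7.20 FPKM (SD, n = 2) in B16F1-CXCL5 and 36.7 ± 1.79 FPKM (SD, n = 3) in B16F1 tumors. The log2 fold change was 0.25 (SE 0.12, unadjusted 95% interval -0.04 to 0.53, limma adjusted p = 0.619, exact two-sided permutation p = 0.1). Nf1, the gene of neurofibromin, had 12.3 and 13.3 FPKM in B16F1-CXCL5 libraries, against 12.2, 10.3 and 9.96 FPKM in the B16F1 libraries (log2 fold change 0.23, limma adjusted p = 0.634).

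**Figure D3:**
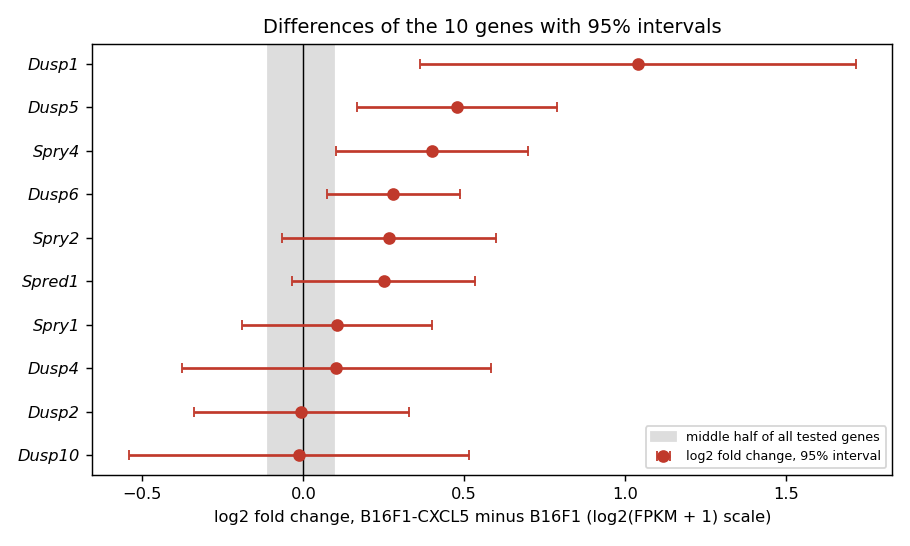
Log2 fold change, B16F1-CXCL5 minus B16F1, of the 10 genes in order of size, with unadjusted 95% intervals from limma; the grey band is the interquartile range of all 12533 tested genes, -0.11 to 0.10. The intervals of Dusp1, Dusp5, Spry4 and Dusp6 lie above 0, those of the other 6 include 0, and 0 of 10 passed after adjustment over all genes.

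Single libraries changed the size of several differences. B16F1-CXCL5 library 1 held the highest value of 6 members, and B16F1 library 3 held the lowest value of 7. How often these libraries held the highest or lowest value over all tested genes was not counted. Within the B16F1-CXCL5 group, library 1 lay above library 2 for 7 of the 10, against 54.6% of all tested genes. The median log2 difference was 0.25 for the members and 0.02 for all tested genes. B16F1 library 3 lay below the log2 mean of B16F1 libraries 1 and 2 for 7 of the 10, against 56.4% of all tested genes. The median log2 difference of library 3 from that mean was -0.16 for the members and -0.03 for all tested genes. The counts of 7 set against 54.6% and 56.4% are not far from those shares. Without B16F1-CXCL5 library 1 the median log2 fold change of the 10 genes was 0.11, against 0.26 with all libraries, and those of Spred1, Spry2 and Spry1 were 0.09, 0.13 and -0.05. Without B16F1 library 3 the median was 0.21, and Dusp1 had a log2 fold change of 0.78. Leaving out any 1 library kept a positive log2 fold change for Dusp1 (0.78 to 1.25), Dusp5 (0.40 to 0.55), Dusp6 (0.22 to 0.32), Spry4 (0.29 to 0.52), Spry2 (0.13 to 0.40) and Spred1 (0.09 to 0.41). The sign of Dusp2, Dusp4, Dusp10 and Spry1 turned in at least 1 of these fits.

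**Figure D4:**
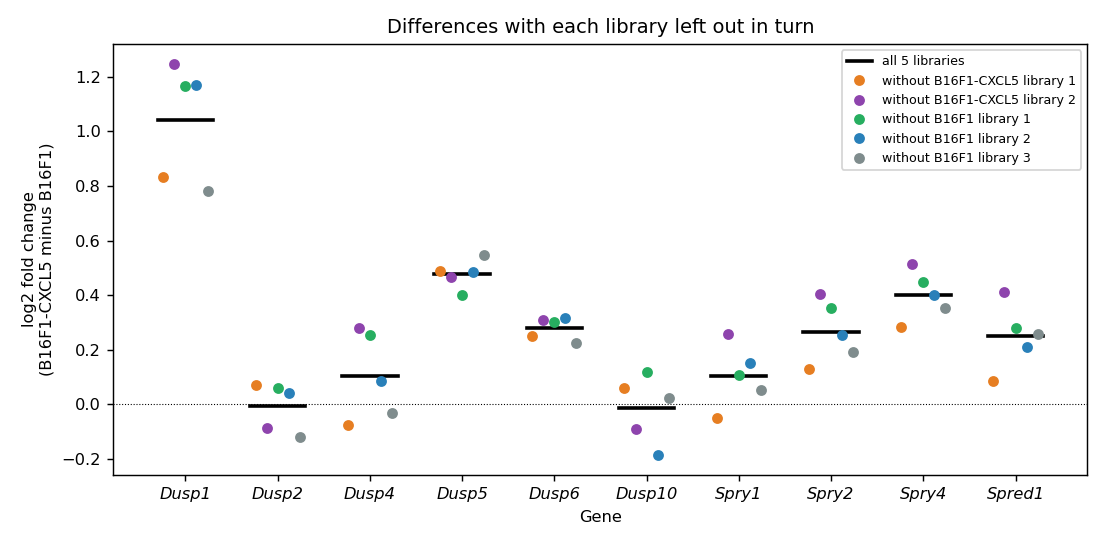
Log2 fold change of each gene with all 5 libraries (black bar) and with each library left out in turn (coloured points), B16F1-CXCL5 minus B16F1. Dusp5 stays within 0.40 to 0.55 and Dusp6 within 0.22 to 0.32, whereas Dusp2, Dusp4, Dusp10 and Spry1 have points on both sides of 0.

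Whole tumors were sequenced, and fewer cells of a type and less RNA per cell cannot be told apart in such values. Neutrophil markers, led by S100a8 and S100a9, showed the widest gap of the marker sums between the groups. The summed FPKM of 15 such markers was 770 and 837 in B16F1-CXCL5 libraries 1 and 2, against 26.3, 30.4 and 64.6 in B16F1 libraries 1, 2 and 3. All 11 tested had a positive log2 fold change, and 5 passed (S100a8, Csf3r, Cxcr2, Retnlg and Mmp9, limma adjusted p at most 0.0403). S100a9 did not pass (limma adjusted p = 0.0674). In 10 of the 11 both B16F1-CXCL5 libraries lay above all B16F1 libraries, against 10.8% of all tested genes. S100a8 had 369 ± 18.4 FPKM in B16F1-CXCL5 and 8.73 ± 6.60 FPKM in B16F1 tumors. With B16F1-CXCL5 library 1, B16F1-CXCL5 library 2 or B16F1 library 2 left out, 1, 0 and 2 neutrophil markers were called by limma, and every tested marker kept a positive log2 fold change. Camp, Ngp, Ltf and Cd177, the markers under the filter and named here after their values were seen, stayed at or below 0.274 FPKM in all libraries. Keratinocyte markers summed to 436 and 573 FPKM in B16F1-CXCL5 libraries, against 382, 381 and 1038 FPKM in the B16F1 libraries, so B16F1 library 3, lowest for most feedback genes, was highest here. Melanocyte lineage markers, led by Dct and Mlana, summed to 10068 and 11018 FPKM in B16F1-CXCL5 libraries 1 and 2. In B16F1 libraries 1, 2 and 3 they summed to 12843, 11202 and 9434 FPKM, and none of the 9 was at 0. Of these 9 markers, 2 had a positive log2 fold change, and the median was -0.12, with 0 passing. In 2 of the 9 both B16F1-CXCL5 libraries lay below all B16F1 libraries, against 15.6% of all tested genes. Fibroblast markers, led by Col1a1 and Col1a2, summed to 1592 and 1822 FPKM in B16F1-CXCL5 libraries. In the B16F1 libraries they summed to 1091, 907 and 1846 FPKM. Of these 7 markers, 6 had a positive log2 fold change, with a median of 0.45, 0 passing and 0 without overlap. Macrophage markers, led by C1qb and C1qa, overlapped between groups at 324 and 218 FPKM in B16F1-CXCL5 and 252, 202 and 298 FPKM in B16F1 libraries. Endothelial markers, led by Pecam1 and Cdh5, did so too, at 57.2 and 46.7 FPKM in B16F1-CXCL5 and 39.0, 41.9 and 51.4 FPKM in B16F1 libraries. The 8 T and NK cell markers, led by Nkg7 and Cd3g, summed to at most 3.88 FPKM in any library, and 0 of them passed the filter. The part of these cells in the values of the feedback genes was not tested.

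The rest of the same families had a median near that of all genes. Of 7 further members, 5 were tested, 0 passed and 3 had a positive log2 fold change, with a median of 0.01. Dusp7, a cytoplasmic phosphatase of ERK related to Dusp6, had 17.0 and 15.96 FPKM in B16F1-CXCL5 libraries, against 18.2, 21.1 and 19.7 FPKM in the B16F1 libraries, lower without overlap (log2 fold change -0.24, limma adjusted p = 0.532). Spred3, a relative of Spred1, had 2.76 and 3.11 FPKM in B16F1-CXCL5 and 2.48, 2.16 and 1.45 FPKM in B16F1 libraries (log2 fold change 0.39, limma adjusted p = 0.617). Dusp8, a phosphatase of JNK and p38, overlapped between the groups (log2 fold change 0.17, limma adjusted p = 0.826). Spry3 was listed at 0 in all 5 libraries and Dusp9 stayed at or below 0.662 FPKM. Among 13 atypical DUSPs, small phosphatases outside the MAP kinase phosphatase group, 9 were tested, 0 passed and 1 had a positive log2 fold change, with a median of -0.07. Dusp18 had 8.38 and 9.06 FPKM in B16F1-CXCL5 libraries, against 12.4, 15.4 and 9.63 FPKM in the B16F1 libraries (log2 fold change -0.45, limma adjusted p = 0.576). Dusp3 and Dusp12 overlapped between the groups, with log2 fold changes of -0.09 each.

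Upstream of the feedback genes, the ERK cascade itself had a median near 0. All 20 listed genes of the cascade from adaptors to ERK were tested, 0 passed and 12 had a positive log2 fold change, with a median of 0.02. Map2k2, encoding the ERK kinase MEK2, had 50.1 and 50.8 FPKM in B16F1-CXCL5 libraries, against 57.3, 66.2 and 64.1 FPKM in the B16F1 libraries (log2 fold change -0.30, limma adjusted p = 0.440). Ksr1, a scaffold of RAF, MEK and ERK, had 3.70 and 4.31 FPKM in B16F1-CXCL5 and 2.78, 2.90 and 2.99 FPKM in B16F1 libraries (log2 fold change 0.36, limma adjusted p = 0.459), and Frs2, an adaptor of FGF receptors, had a log2 fold change of -0.15 (limma adjusted p = 0.712). Of 23 receptors and ligands, 18 were tested, 0 passed and 13 were positive, with a median of 0.10. Kit, the receptor of stem cell factor on melanocytes and mast cells, had 18.9 and 23.3 FPKM in B16F1-CXCL5 libraries, against 9.57, 7.60 and 10.6 FPKM in the B16F1 libraries (log2 fold change 1.11, SE 0.16, limma adjusted p = 0.131). Erbb3, the neuregulin receptor, had 26.7 and 25.5 FPKM in B16F1-CXCL5 and 23.7, 18.2 and 17.8 FPKM in B16F1 libraries (log2 fold change 0.39, limma adjusted p = 0.502), and Pdgfb, a ligand of PDGF receptors, had a log2 fold change of 0.34 (limma adjusted p = 0.617).

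The p38 and JNK route had a median slightly below that of all genes. Of its 17 listed genes 16 were tested, 0 passed and 7 had a positive log2 fold change. Their median was -0.05, against -0.01 for all tested genes, and lay within the interquartile range of all tested genes (-0.11 to 0.10). With a library left out it ranged from -0.08 to -0.01. In 5 of the 16 both B16F1-CXCL5 libraries lay below all B16F1 libraries, a share to be read against 15.6% of all genes, and in 1 they lay above. Map2k3, a kinase that activates p38, had 53.9 and 52.5 FPKM in B16F1-CXCL5 libraries, against 68.5, 70.1 and 70.4 FPKM in the B16F1 libraries (log2 fold change -0.38, limma adjusted p = 0.205). The JNK gene Mapk9 and the JNK kinase gene Map2k4 had log2 fold changes of -0.23 and -0.19 (limma adjusted p = 0.483 and 0.501). Other feedback regulators, 9 tested of 10, had a median of -0.01, with 4 positive and 0 passing. Dok2, an adaptor of blood cells that restrains RAS, had a log2 fold change of -0.26 (limma adjusted p = 0.773).

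Downstream, immediate early genes had a higher median than other ERK target genes. Of 9 further ERK target genes, 8 were tested, 0 passed and 5 were positive, with a median log2 fold change of 0.07. Etv5, an ETS factor induced by ERK, had 28.6 and 16.3 FPKM in B16F1-CXCL5 libraries, against 16.2, 15.1 and 18.03 FPKM in the B16F1 libraries, so that B16F1-CXCL5 library 1 alone stood high (log2 fold change 0.38, limma adjusted p = 0.707). The related Etv1 had a log2 fold change of 0.27 (limma adjusted p = 0.669), and Ccnd1, encoding cyclin D1, had one of -0.08 (limma adjusted p = 0.901). Of 21 immediate early genes, all tested, 0 passed and 19 were positive, with a median of 0.45, and in 11 the B16F1-CXCL5 libraries lay above all B16F1 libraries (10.8% of all genes did), in 1 below (15.6% of all genes). Atf3, a stress-induced factor, had 13.2 and 12.5 FPKM in B16F1-CXCL5 libraries, against 8.01, 6.55 and 8.91 FPKM in the B16F1 libraries (log2 fold change 0.66, limma adjusted p = 0.313). The AP-1 genes Jun and Junb had log2 fold changes of 0.58 and 0.62 (limma adjusted p = 0.332 and 0.404). At 1.04, Dusp1 lay above these 3 but within the range of the list, and the medians of the lists were not tested against each other.

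**Figure D5:**
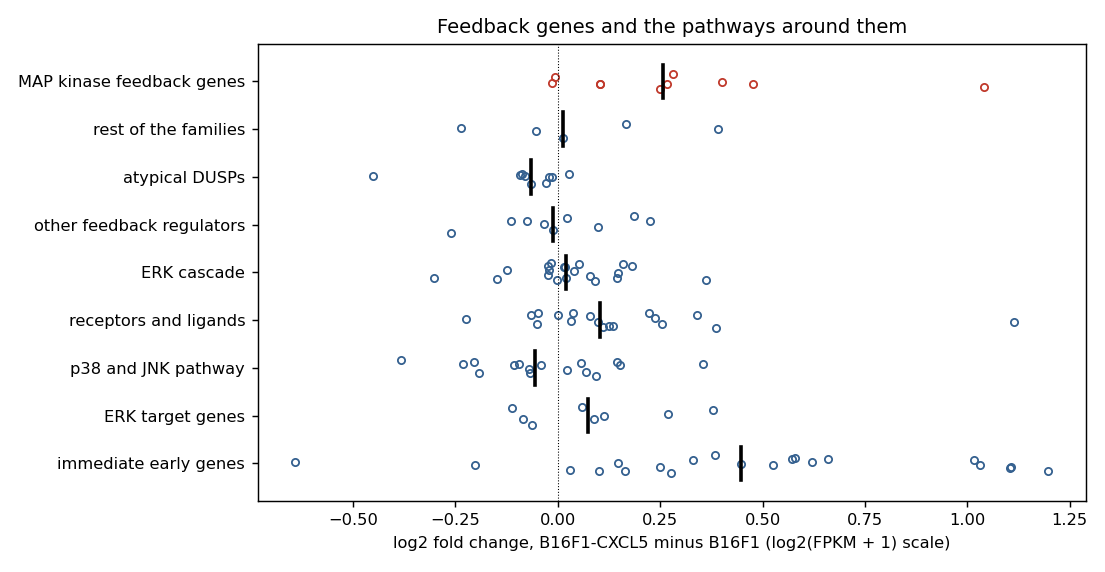
Log2 fold change, B16F1-CXCL5 minus B16F1, of every tested gene in the 10 feedback genes (red) and in 8 surrounding lists (blue), with a bar at each list's median and heights within a row spread only for legibility. Medians are 0.26 for the feedback genes, 0.45 for immediate early genes and between -0.07 and 0.10 for the other 7 lists.

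Profiles across the 5 libraries were compared by the root mean square difference of log2(FPKM + 1) after centring each gene on its own mean. Spry2 and Spry4 were the closest pair among the members (0.081), and Dusp6 lay next to Spry4 (0.088). Spry2 was also the nearest member to Spred1 (0.095) and to Dusp4 (0.11). Dusp1 stood farthest from the rest, with Spry4 nearest at 0.39. Profiles were centred but not scaled, so this distance also holds the size of change, and Dusp1 had the largest log2 fold change of the members (1.04). Outside the members, predicted genes, RIKEN clones and small RNA genes were left out of the search. Among the rest, the 5 genes with profiles most like Dusp5, the member with the smallest p, were Dennd1c, Il28ra, Ccdc88b, Rgs16 and Itgax, at 0.031 to 0.056. All 5 had low levels, at most 3.06 FPKM in any library, where this scale compresses differences.

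Most members had few exons, and all held AU-rich pentamers. In the longest coding transcript of each gene (GENCODE M21, GRCm38), 9 of the 10 had at most 6 exons, against 33.8% of 10950 tested genes with a coding transcript, whose median was 9 exons. Spred1, with 7 exons, was the exception, and Spry1, Spry2 and Spry4 had 2 each. The pentamer ATTTA, a core of the elements that mark short-lived mRNAs for decay, stood at least once in the 3′ UTR of 10 of 10 members, against 64.5% of those genes; at least 5 stood in 2 of 10 members, against 19.1%. Counts ranged from 1 in Dusp5 and Dusp6 to 12 in Spred1, whose 3′ UTR has 4330 bases. The median 3′ UTR of those tested genes had 927 bases, and the counts were not matched for length. Per kilobase of 3′ UTR, Dusp2 and Dusp1 had the highest density, at 6.88 and 5.80, against a median of 1.31 over the 10258 tested genes with a 3′ UTR of at least 100 bases. Of the 10 members, 8 lay above that median, and Dusp5 and Dusp6 lay below it at 0.90 and 0.84. The log2 fold changes of the densest pair were -0.01 for Dusp2 and 1.04 for Dusp1. These features were looked up after the values were known, and a pentamer in the annotation is not a measured half-life.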

How the data were processed

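RNA was read in 2 libraries of B16F1-CXCL5 and 3 of B16F1 primary tumors. Stranded poly(A) libraries were sequenced on an Illumina instrument, per the labels' protocols. The authors deposited 1 table of FPKM values. The submitters' processing notes name Cufflinks 2.2.1, SAMtools 0.1.1.9, Bowtie 1.0.0, TopHat2 2.0.10, FastQC 0.10.1 and the build GRCm38 (mm10); annotation and strand setting were not given in the sources used here. Column names match sample titles, and 0 columns belonged to other samples.

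Genes that reached an FPKM of 1 in 2 or more libraries were tested with limma 3.58.1 (R 4.3.3) on log2(FPKM + 1). The fit used an intensity trend and Benjamini-Hochberg adjustment over 12533 genes. It was also run on simulated data in which all genes shared the same spread and changes exceeded those of the members. That run cannot show how well differences of the members' size are found. FPKM is no count, so no count model was used. Low FPKM values fall into steps that imply 25800000 to 28000000 fragments per library, assuming fragments of 200 bases. On that scale Dusp10 rests on about 51 to 110 fragments per library, Dusp5 on 140 to 270 and Dusp4 on 5100 to 7400. At most 0.008% of values were identical between libraries, so no column was a copy of another. Each library was counted as its own sample, which this check cannot settle, because the labels give no mouse per library.

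Named genes are all members, the 3 smallest p-values of each pathway list and the 2 highest levels of each marker list, with every gene of a pathway list past the threshold; 0 were. Exceptions are said where they stand, and 1 gene that the rule takes is not reported here. Members and lists were chosen with earlier results of these data known. Alternatives were other pseudocounts, filters, scalings, no trend, library weights, no small RNA genes, a replicate block and leaving out each library.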

Additional observations from a re-analysis of the deposited data

How the results depend on the processing

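In the main fit and under all 15 alternatives 0 of the feedback genes passed, with smallest adjusted p-values from 0.176 (replicate block) to 1.00 (without B16F1-CXCL5 library 2). Of 149 single-gene log2 fold changes computed under alternatives, 133 kept their direction and 16 turned. These counts include fits that could not turn a direction. Other filters, no trend and no small RNA genes leave each log2 fold change as it was. The replicate block gives the same log2 fold changes as leaving out B16F1 library 3, so those values enter the counts again. Those that turned were Dusp2 at the same sum per library (0.040) and with median-of-ratios scaling (0.010), Dusp4 with the replicate block (-0.033), and Dusp10 with a pseudocount of 0.1 (0.0030), library weights (0.026), the same sum per library (0.013) and the replicate block (0.024). With a library left out, Dusp2 ranged from -0.12 to 0.073, Dusp4 from -0.076 to 0.28, Dusp10 from -0.19 to 0.12 and Spry1 from -0.050 to 0.26. The count of positive members was 8 to 10 with a library left out, an alternative chosen after seeing the data.

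The 17 genes called of all tested (16 higher, 1 lower) became 8 at pseudocount 0.1, 7 under a filter of mean FPKM 3, 39 where no trend was fitted and 31 where libraries were weighted. With 1 library left out they ranged from 2 (0 higher, 2 lower, without B16F1-CXCL5 library 2) to 34 (without B16F1 library 3), with 3 (1 higher, 2 lower) without B16F1-CXCL5 library 1 and 11 without B16F1 library 2. The cause was not tested. With 1 B16F1-CXCL5 library left, that library is assumed to vary like the B16F1 libraries. The 5 neutrophil calls became 0 to 7, an alternative also chosen after seeing the data. The groups share replicate numbers 1 and 2 in the labels, but nothing says that these mark a shared mouse or batch. Deviations of same-numbered libraries correlated at -0.028 and -0.019 across genes. The deviations of the 2 B16F1-CXCL5 libraries from their group mean mirror each other, so these values are not separate checks. With the replicate block 46 genes were called, 0 of them feedback genes. Only B16F1 has a replicate 3, so the block takes that library out of the group difference. The log2 fold change of Dusp1 was thus 0.78 both with the block and without B16F1 library 3. Dusp10 did not enter under the filter of mean FPKM 3, and its low fragment number limits its precision.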
